A study of Mus musculus with 4 samples.

Results

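Small leucine-rich proteoglycans (SLRPs) were examined in mesenchymal cells of the neonatal mouse lung, labelled as wild type or as a conditional knockout of Dnmt1, whose product copies DNA methylation to the new strand after replication. The 8 members were chosen by gene symbol from the count table: Dcn, Lum, Bgn, Fmod, Ogn, Omd, Prelp and Podn. They are 8 of the 31247 genes with reads in the table, and each symbol matched 1 row. All 8 had enough reads to be tested.

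RNA was sequenced from GFP-positive cells sorted by flow cytometry from lungs on postnatal day 7, with about 300000 to 350000 cells per sample. The wild-type group (WT, n = 2) carried the Pdgfrb-GFP reporter, and the labels call the cells myofibroblasts. The conditional knockout group (CKO, n = 2) carried the same reporter (labelled PDGFRb-GFP), with Tbx4-rtTA and Tet-O-Cre, and its Dnmt1 genotype is given as Dnmt1-D/D. In this kind of model a Tbx4 promoter element drives a transactivator that switches on Cre in lung mesenchyme when a tetracycline is given. The induction schedule, and whether WT animals carried Tbx4-rtTA or Tet-O-Cre, are not stated in the labels. The count columns carry no replicate number, and the libraries are called WT A and B and CKO A and B after their column order. Where a pair of values is given for a genotype, library A comes first. The labels name no litters, and p-values therefore reflect only how these libraries vary.

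SLRPs are secreted proteins built from leucine-rich repeats, most of which carry chondroitin, dermatan or keratan sulfate chains. They bind collagen and regulate how fibrils assemble, space and thicken, and several also bind growth factors or cell surface receptors. In lung they are products of fibroblasts and lie in the collagen-rich matrix around airways and vessels and in the alveolar wall.

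The libraries held 23071657 to 26420648 counted reads, so that a single read was worth between 0.0377 and 0.0439 CPM (the read count scaled by a library size that TMM had normalized). Dnmt1 stood at 144 and 115 CPM in WT and at 78.2 and 29.5 CPM in CKO. CKO A thus kept 60.3% of the WT mean and CKO B 22.8%, with a log2 change of -1.27 ± 0.57 (SE, n = 2 per genotype) that edgeR did not call (adjusted p = 0.31). The authors' deposited table gives Dnmt1 a log2 fold change of -1.23 with an adjusted p of 0.029. CKO A also held 2494 reads of the Y-linked gene Ddx3y, of which the other 3 libraries had 0. Xist stood at 849 and 671 CPM in WT and at 164 and 1081 CPM in CKO, so that CKO A was lowest but not without it. The column names of WT B, CKO A and CKO B begin with the same number and that of WT A does not, and no label says what this number means. The sorted gene, Pdgfrb, stood at 507 and 477 CPM in WT and at 374 and 317 CPM in CKO (log2 change -0.51, edgeR adjusted p = 0.0546). Of the myofibroblast markers, Acta2 (3133 to 4057 CPM) and Pdgfra (324 to 596 CPM) were abundant, whereas Tagln had 9.15 to 12.0 CPM. For Pdgfrb and Pdgfra (log2 change -0.60, edgeR adjusted p = 0.0526) both CKO libraries lay below both WT libraries, as for 29.3% of all tested genes.

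Fmod was the single member of the 8 that passed the test in the comparison of CKO with WT. It was 2.05-fold higher in CKO (edgeR quasi-likelihood test, adjusted p = 0.0432, Benjamini-Hochberg over 15210 genes). No member was lower in edgeR, DESeq2 or limma-voom, and 0 were lower at an unadjusted p under 0.05 in edgeR. Over all tested genes 4.85% were called higher, 2.75% lower and 7.61% in either direction at the same threshold of 0.05. The log2 change of each of the 8 members was above 0, against 49.0% of all tested genes. Both CKO libraries lay below both WT libraries for 0 members and for 29.3% of all tested genes. The median log2 change was 0.56 for the members and -0.01 for all tested genes. Both CKO libraries lay above both WT libraries for 5 members (Dcn, Lum, Bgn, Fmod and Prelp), a pattern that 27.7% of all tested genes showed. At an unadjusted p under 0.05, 3 members were higher (Dcn, Fmod and Prelp), against 13.1% of all tested genes. In bulk samples, a change in the number of cells of a type and a change in RNA per cell cannot be told apart.

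Levels were compared between genes per length, as RPKM over merged exons. Bgn made up 74.2% to 79.2% of the summed RPKM of the 8 members in the 4 libraries. It ranged from 639 to 833 RPKM and ranked 31 among the 15200 tested genes with a length. Prelp followed at 80.7 to 115 RPKM and Ogn at 34.4 to 54.0 RPKM. Dcn (14.8 to 48.6 RPKM), Fmod (14.2 to 40.7), Podn (13.5 to 18.4) and Lum (9.31 to 20.9) came next, and their ranges over the 4 libraries overlapped from each gene to the next. Ogn and Dcn also overlapped in range, although Ogn was the higher of the pair within each of the 4 libraries. Omd was far below the rest, at 0.508 to 1.40 RPKM.

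**Figure D1:**
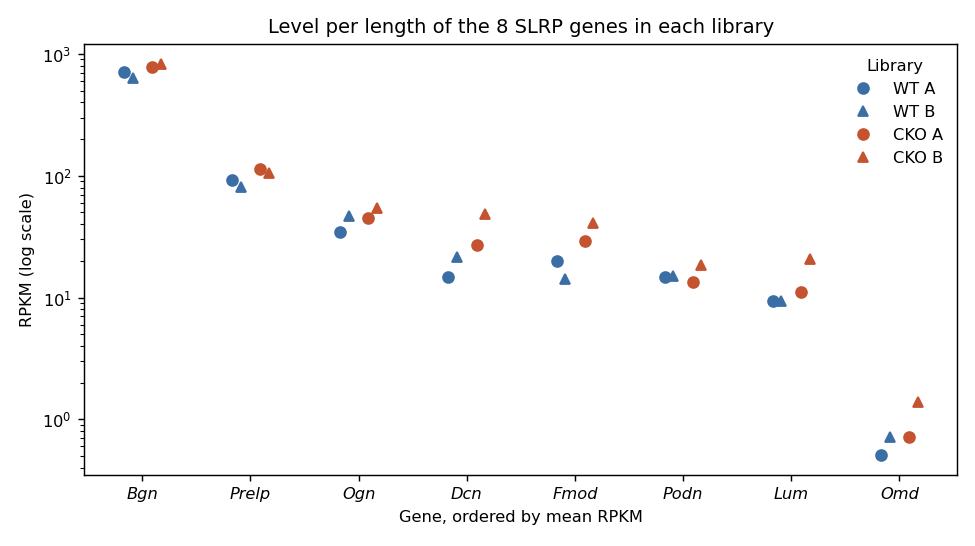
Level per length (RPKM, log axis) of the 8 SLRP genes in each of the 4 libraries, with WT in blue and CKO in red, and genes ordered by their mean. Bgn lies apart at 639 to 833 RPKM and Omd at 0.508 to 1.40, while Dcn, Fmod, Podn and Lum overlap with their neighbours.

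The class I members are Dcn (decorin) and Bgn (biglycan), which carry chondroitin or dermatan sulfate. Decorin coats collagen fibrils, limits their lateral growth and binds TGF-beta. Dcn (chromosome 10, 97479609 to 97518143, GRCm38) stood at 86.4 and 126 CPM in WT and at 157 and 284 CPM in CKO. Both CKO libraries were above both WT libraries, but CKO A lay closer to WT B than to CKO B. The log2 change of 1.06 ± 0.36 (SE, n = 2 per genotype) matched that of Fmod in size. It did not pass in edgeR (adjusted p = 0.182), and its 95% interval ran from 0.06 to 2.05. The log2 change was 0.58 without CKO B and 1.45 without CKO A, where it passed (adjusted p = 0.0161). The authors' deposited table gives Dcn a log2 fold change of 1.10 with an adjusted p of 0.0048.

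Biglycan binds collagen and, as a free matrix fragment, signals through Toll-like receptors. Bgn (chromosome X, 73483602 to 73495933) had 98685 to 125422 reads per library. It stood at 4333 and 3899 CPM in WT and at 4774 and 5082 CPM in CKO. The CKO libraries lay above the WT libraries by a margin near the spread between the WT libraries. The log2 change of 0.26 ± 0.16 did not pass (edgeR adjusted p = 0.363), with an interval from -0.11 to 0.63. The ratio of Dcn to Bgn in RPKM was 0.0208 and 0.0337 in WT and 0.0344 and 0.0584 in CKO, so that WT B and CKO A were alike in this ratio.

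The class II members are Lum, Fmod, Prelp and Omd. Fibromodulin, the product of Fmod, is a keratan sulfate proteoglycan of tendon, cartilage and other dense tissue that shares a collagen binding site with lumican. Fmod (chromosome 1, 134037254 to 134048277) stood at 66.0 and 47.0 CPM in WT and at 97.1 and 135 CPM in CKO. The lowest CKO library was above the highest WT library, and the libraries of each genotype differed by a ratio of 1.40 in WT and 1.39 in CKO. The log2 change was 1.04 ± 0.22, with an interval from 0.51 to 1.57. DESeq2 (adjusted p = 1.66e-05) and limma-voom (adjusted p = 0.0371) also called Fmod higher, and the authors' deposited table gives it an adjusted p of 0.00027. In edgeR the call was kept with library size alone (adjusted p = 0.0257) and with robust estimation off (adjusted p = 0.0358). The call was close to the threshold and was lost with RLE size factors (edgeR adjusted p = 0.0513), with only genes of mean CPM of at least 1 (adjusted p = 0.0603), without WT B (log2 change 0.82, adjusted p = 0.133) and without CKO B (log2 change 0.79, adjusted p = 0.103). It was held without WT A (log2 change 1.31, adjusted p = 0.0118), the comparison within the shared column number, and without CKO A (log2 change 1.28, adjusted p = 0.0175).

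Prelp encodes a basement membrane anchor protein, whose arginine- and proline-rich end binds heparan sulfate. Its gene (chromosome 1, 133910304 to 133921414) is the nearest SLRP neighbour of Fmod. Prelp stood at 334 and 292 CPM in WT and at 414 and 383 CPM in CKO. The CKO libraries were above the WT libraries with little spread, and CKO A was the higher of them. The log2 change of 0.35 ± 0.13 did not pass (edgeR adjusted p = 0.134, interval 0.06 to 0.64). The RPKM ratio of Fmod to Prelp was 0.216 and 0.176 in WT and 0.256 and 0.385 in CKO. Prelp shares 350 exonic bases with the antisense gene Gm15851, which had 0 or 1 read per library.

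Lumican, the product of Lum, is a keratan sulfate proteoglycan that keeps collagen fibrils thin and evenly spaced. Lum (chromosome 10, 97565128 to 97572703) stood at 22.79 and 22.97 CPM in WT and at 27.0 and 51.1 CPM in CKO. The WT libraries were nearly equal, CKO A lay just above them and CKO B alone was far higher. The log2 change of 0.77 ± 0.31 did not pass (edgeR adjusted p = 0.216, interval -0.04 to 1.58). Leaving out CKO A gave 1.19 (adjusted p = 0.0001) and leaving out CKO B gave 0.25 (adjusted p = 0.318), so the size rested on CKO B. DESeq2 with all 4 libraries called Lum higher, and limma-voom did not. The RPKM ratio of Dcn to Lum was 1.59 and 2.29 in WT and 2.44 and 2.33 in CKO, with WT A alone lower.

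Omd encodes osteomodulin, a keratan sulfate proteoglycan known from bone and tooth. Omd (chromosome 13, 49582462 to 49592822) had 26 and 43 reads in WT and 42 and 73 in CKO. These counts corresponded to 1.14 and 1.62 CPM in WT and 1.60 and 3.15 CPM in CKO, and the groups overlapped. The log2 change of 0.77 ± 0.43 equalled that of Lum in size but was less precise (edgeR adjusted p = 0.313, interval -0.23 to 1.76), and it was 0.22 without CKO B. Cenpp, a centromere protein gene on the opposite strand, spans Omd, Ogn, Aspn and Ecm2, with 92 to 152 reads per library. Its exons overlap those of Omd by 0 bases, but reads from its introns cannot be told apart from those of genes within them unless strand was used in counting.

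Ogn, of class III, encodes osteoglycin (mimecan), which takes part in collagen fibril formation. Ogn (chromosome 13, 49608046 to 49624501) stood at 88.2 and 120 CPM in WT and at 116 and 139 CPM in CKO. WT B was above CKO A, so that the groups overlapped. The log2 change was 0.29 ± 0.17 (edgeR adjusted p = 0.334, interval -0.10 to 0.68), and 0.10 without WT A.

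Podn, of class V, encodes podocan, a collagen-binding protein of smooth muscle and kidney. Podn (chromosome 4, 108014791 to 108096445) stood at 62.5 and 64.4 CPM in WT and at 57.7 and 78.6 CPM in CKO. The CKO libraries lay on either side of the WT libraries. The log2 change of 0.10 ± 0.16 was the smallest of the 8 (edgeR adjusted p = 0.731, interval -0.26 to 0.46), and it was -0.13 without CKO B. Podn overlaps Scp2 on the same strand, with 0 exonic bases shared. Reads from Scp2 introns that fall within Podn exons cannot be told apart from Podn reads, even if strand was used in counting.

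**Figure D2:**
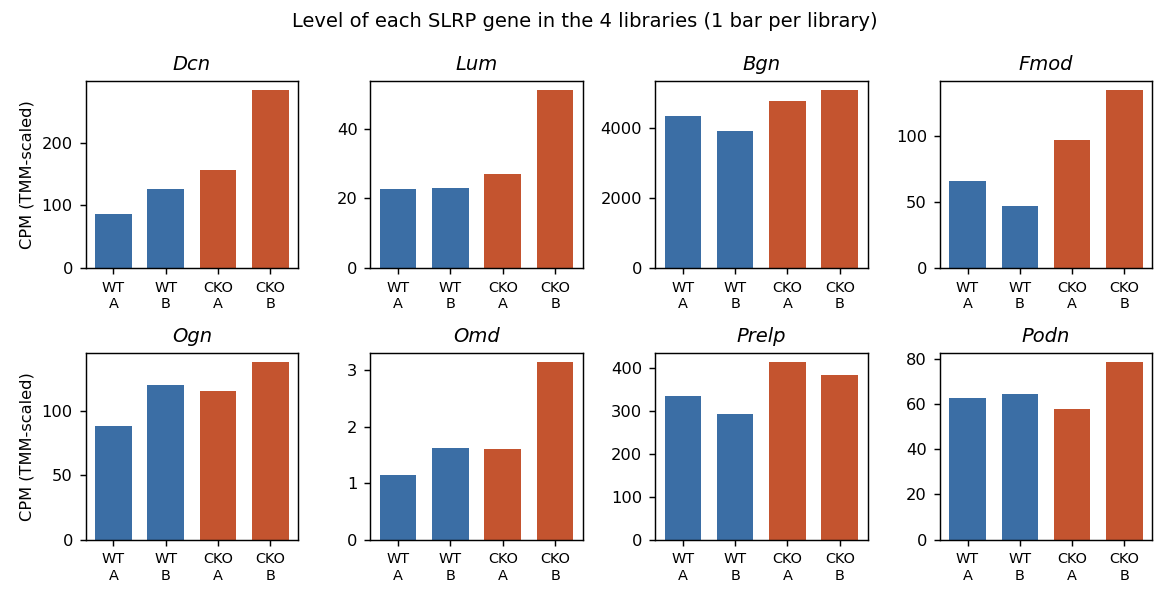
Level (TMM-scaled CPM) of each of the 8 members, with 1 bar per library, WT in blue and CKO in red, and a scale of its own in each panel. CKO B has the tallest bar for 7 members and CKO A for Prelp.

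CKO B was the highest of the 4 libraries for 7 members, all but Prelp. The share of all tested genes that were highest in CKO B was not computed, so this count cannot be read as particular to the members. The lowest library was WT A for 4 members (Dcn, Lum, Ogn and Omd), WT B for 3 (Bgn, Fmod and Prelp) and CKO A for Podn. With Bgn left out, the summed level of the other 7 members was 661 and 673 CPM in WT and 870 and 1073 CPM in CKO. The part of the Dnmt1 level, or of the Y-linked reads in CKO A, in the difference between the CKO libraries was not tested. Without CKO A, 3 members were higher in edgeR (Dcn, Lum and Fmod), and without CKO B 0 were.

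**Figure D3:**
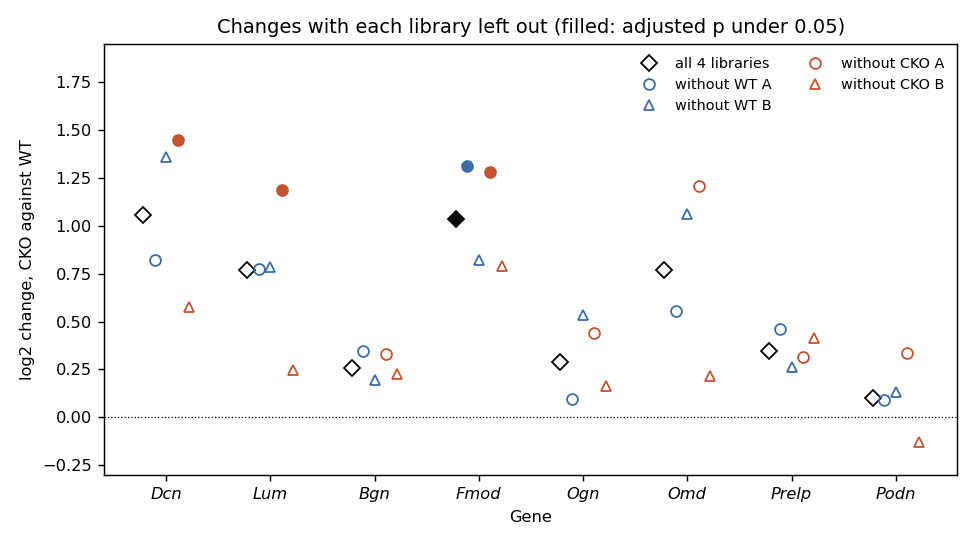
Log2 change of each member in the fit of all 4 libraries (diamonds) and in fits that leave out 1 library, with filled symbols for an adjusted p under 0.05. The open triangles in red, without CKO B, are the lowest values for Dcn, Lum, Fmod, Omd and Podn, and that of Podn lies at -0.13.

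None of the 9 other SLRP genes passed. Of these, 6 were tested, 0 were called higher or lower in edgeR, and at an unadjusted p under 0.05 there was 1 higher (Optc) and 1 lower (Chad). DESeq2 and limma-voom called 0 of them. Aspn, encoding asporin, a class I relative without a glycosaminoglycan chain, was more abundant than every member but Bgn, at 330 to 517 RPKM. It stood at 777 and 1216 CPM in WT and at 885 and 1070 CPM in CKO, so that the WT libraries lay outside both CKO libraries. Its log2 change was -0.03 ± 0.23 (adjusted p = 0.953, interval -0.56 to 0.51). Ecm2 and Tsku, an extracellular matrix protein gene and the tsukushi gene, had log2 changes of 0.04 ± 0.20 and 0.11 ± 0.13, and Podnl1 one of -0.29 ± 0.34. Optc, encoding opticin of the eye's vitreous, had 18 and 33 reads in WT and 53 and 60 in CKO, a log2 change of 1.16 ± 0.40 (adjusted p = 0.116). Kera, Epyc and Nyx, with 0 to 11 reads per library, were too low to be tested.

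Chad encodes chondroadherin, a cartilage protein. Chad had 71 and 40 reads in WT and 15 and 15 in CKO. Its log2 change of -1.91 ± 0.48 lay just outside the threshold (edgeR adjusted p = 0.0522). The authors' deposited table gives Chad an adjusted p of 0.0315 and Optc one of 0.17. Cartilage markers were high in WT A alone. Their summed level was 430 and 102 CPM in WT and 60.1 and 84.7 CPM in CKO, and Col2a1, which defines cartilage, stood at 262 and 58.3 CPM in WT and 36.1 and 38.2 CPM in CKO. Of the 13 cartilage markers 11 were tested and 0 called, with 0 log2 changes above 0 and 2 lower at an unadjusted p under 0.05 (Comp and Cnmd). DESeq2 called 1 of them lower (Cnmd) and limma-voom 0. The part of cartilage RNA in the Chad values was not tested.

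**Figure D4:**
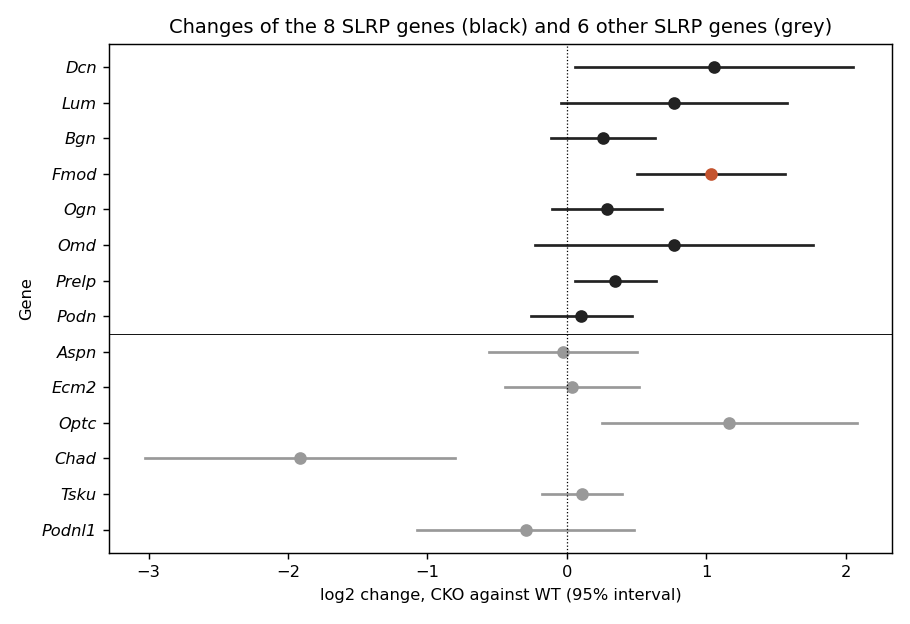
Log2 change in CKO against WT with its 95% interval for the 8 members (black) and the 6 tested other SLRP genes (grey), with the called gene as a red point. Fmod is the called gene, at 1.04, and Chad lies lowest at -1.91.

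Of the 17 SLRP genes examined, 11 lie in 3 clusters. On chromosome 10, Dcn, Lum, Kera and Epyc follow each other over 203 kb. Dcn and Lum, with log2 changes of 1.06 and 0.77, are in the same cluster as Kera and Epyc, which had 0 to 6 reads per library. On chromosome 13, Ecm2, Aspn, Omd and Ogn lie within 120 kb, with log2 changes of 0.04, -0.03, 0.77 and 0.29. On chromosome 1, Optc, Prelp and Fmod lie within 151 kb. All 3 had both CKO libraries above both WT libraries, as did 27.7% of all tested genes, and only Fmod was called. Bgn, Podn, Chad, Nyx, Tsku and Podnl1 lie elsewhere.

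**Figure D5:**
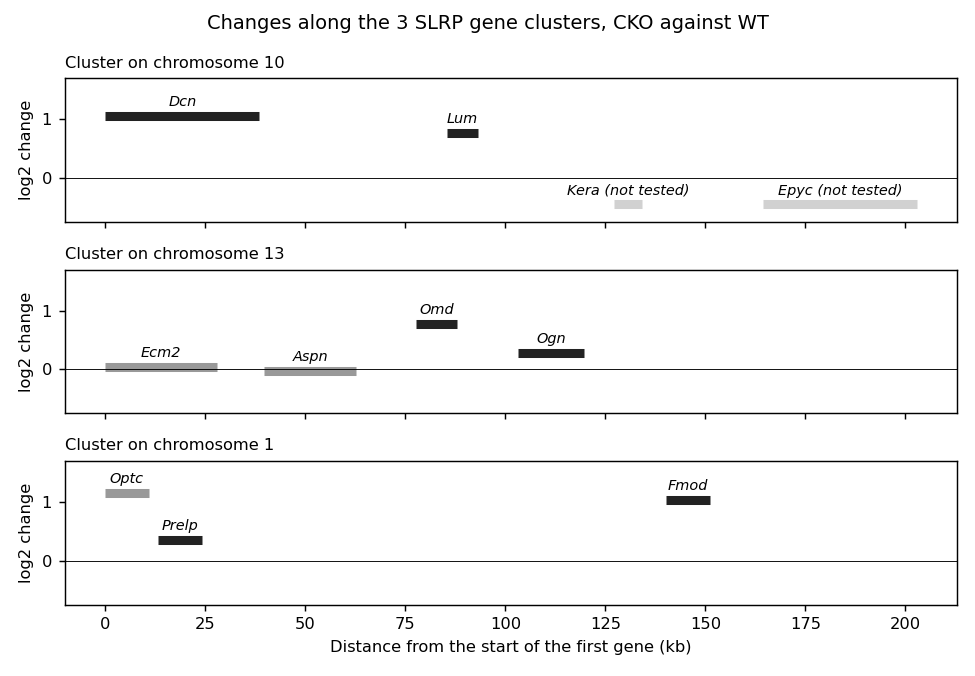
Log2 change in CKO against WT of the genes in each SLRP cluster, drawn at their distance in kb from the start of the first gene, with members in black and other SLRP genes in grey. Kera and Epyc, which were not tested, are drawn faintly below the zero line and have no value.

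Promoter sequences were compared because Dnmt1 maintains methylation at CpG sites. RefSeq windows of 300 bases on GRCm38.p6 (250 before and 50 after the start) were matched for 6 of the 8 members, all but Dcn and Lum. Their CpG counts, by searching for the letters CG, which read the same on both strands, were set against 32851 windows of all genes, with a median of 7 and quartiles of 3 and 20. At least 1 CpG was found in 94.6% of all windows. Fmod had 3 CpGs, Omd 1, Ogn 4, Prelp 7 and Bgn 9. Podn had 7 in one of its windows and 41 in the other, a count that 96.5% of all windows stayed under. The sequence TATAAA, on either strand, which shares no base with a CG, was in the Ogn window and in those of 2 other SLRP genes (Aspn and Chad), against 13.6% of all windows. No methylation was measured in these samples.

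The stretches before the start of Fmod, the called member, of Prelp, its neighbour, and of Bgn, the most abundant member, are printed 5′ to 3′ with each CpG in capitals, for chr1:134037004-134037253 (plus strand), chr1:133921402-133921651 (minus strand) and chrX:73483351-73483600 (plus strand).
Fmod: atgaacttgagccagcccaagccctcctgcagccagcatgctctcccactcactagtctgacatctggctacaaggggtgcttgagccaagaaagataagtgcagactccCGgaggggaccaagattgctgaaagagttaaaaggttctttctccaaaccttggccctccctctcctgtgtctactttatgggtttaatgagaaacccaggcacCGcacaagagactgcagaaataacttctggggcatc
Prelp: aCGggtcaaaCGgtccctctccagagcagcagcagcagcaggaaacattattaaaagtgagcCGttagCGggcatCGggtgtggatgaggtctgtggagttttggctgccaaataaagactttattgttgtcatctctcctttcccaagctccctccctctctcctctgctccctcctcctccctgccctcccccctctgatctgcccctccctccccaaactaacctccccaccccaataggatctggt
Bgn: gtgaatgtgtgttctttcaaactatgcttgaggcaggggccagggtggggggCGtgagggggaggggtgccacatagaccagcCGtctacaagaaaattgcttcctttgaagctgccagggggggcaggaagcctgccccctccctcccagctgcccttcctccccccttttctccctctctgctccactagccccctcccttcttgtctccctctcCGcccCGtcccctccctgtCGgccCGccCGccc
Within these 250 bases Fmod held 2 CpGs, Prelp 5 and Bgn 7.

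Genes whose products work with SLRPs were examined next. Of 13 fibrillar and associated collagen genes 0 passed in edgeR, with a median log2 change of 0.15, and 2 were higher at an unadjusted p under 0.05. Col1a1, the main chain of collagen I, stood at 11380 and 9880 CPM in WT and at 12350 and 19360 CPM in CKO (log2 change 0.58, adjusted p = 0.193). Col5a3 had the lowest p-value of the list (log2 change 1.13, adjusted p = 0.166), followed by Col1a1 and Col1a2 (log2 change 0.45, adjusted p = 0.228). DESeq2 called these 3 collagen genes higher and limma-voom 0. CKO B was the highest library for them too.

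Enzymes that build the glycosaminoglycan chains showed no call in edgeR. Of 9 genes for sulfate supply and the linker to the core protein, 15 tested for chondroitin and dermatan sulfate and 6 tested for keratan sulfate, 0 passed in either direction. At an unadjusted p under 0.05 there were 1 higher and 1 lower, 5 higher, and 1 higher in these lists. DESeq2 called 2 of them higher (Chsy3 and Chst12), both in the chondroitin and dermatan sulfate list, and limma-voom 0. Chsy3, a chondroitin synthase gene, had a log2 change of 0.44 (adjusted p = 0.0518), and Chst12, a chondroitin 4-O-sulfotransferase gene, one of 0.63 (adjusted p = 0.0546). Xylt1, whose product starts the chains, had a log2 change of -0.46 (adjusted p = 0.0791).

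Of 5 genes that process procollagen or SLRP propeptides or enhance that step, 3 were tested and 1 passed. Pcolce, encoding the enhancer of procollagen C-proteinase, rose from 198 and 180 CPM in WT to 296 and 337 CPM in CKO (log2 change 0.75, edgeR adjusted p = 0.0132). Its paralog Pcolce2, which DESeq2 called higher (adjusted p = 0.0279) and limma-voom did not, had a log2 change of 0.65 (edgeR adjusted p = 0.183) and the proteinase gene Bmp1 one of -0.25 (adjusted p = 0.249).

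Receptors and growth factors bound by decorin, biglycan or lumican moved in both directions. Of 11 tested, 2 were higher and 3 lower in edgeR. Tgfb2, a growth factor that decorin binds, fell by 0.96 on the log2 scale, from 446 and 429 CPM in WT to 233 and 215 in CKO (adjusted p = 0.00468). The decorin-binding receptor tyrosine kinase genes Igf1r and Met fell by 0.93 (adjusted p = 0.0128) and 0.73 (adjusted p = 0.017) on the log2 scale. Cd14 and Tlr2, a co-receptor and a receptor for biglycan on leukocytes, rose by 1.69 (adjusted p = 0.0235) and 1.04 (adjusted p = 0.0402) on that scale from levels of 0.922 to 3.21 CPM in WT. The call of Tlr2 was lost in DESeq2 (adjusted p = 0.0605) and limma-voom (adjusted p = 0.057), and both tools held the other 4. Some leukocyte markers were higher alongside. Of 8 tested, 4 were called higher (Cd74, Fcer1g, Laptm5 and Csf1r), against 4.85% of all tested genes, and 0 lower. DESeq2 and limma-voom each called 3 of these 4 and lost Csf1r (adjusted p = 0.0659 and 0.0565). Cd68 and Cd79a went the other way, with both CKO libraries below both WT libraries (log2 change -0.23 and -0.85, edgeR adjusted p = 0.498 and 0.319). The summed level of the listed leukocyte markers was 20.3 and 26.0 CPM in WT against 47.1 and 41.4 in CKO. The part of leukocyte RNA in the Cd14 and Tlr2 values was not tested.

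Among 24 proteoglycan and link protein genes outside the family, 20 were tested, 2 were higher and 1 lower. The glypican genes Gpc3 and Gpc1, for membrane-bound heparan sulfate proteoglycans, rose by 1.14 and 0.64 on the log2 scale (edgeR adjusted p = 0.0264 and 0.0364), and Gpc4 fell by 0.75 (adjusted p = 0.03). The call of Gpc1 was lost in limma-voom (adjusted p = 0.053), and DESeq2 also called Sdc4 higher (adjusted p = 0.0491). The list median was 0.28, and that of all 14 tested SLRP genes 0.27.

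Dcn and Lum are also well known as genes of adventitial fibroblasts, and some markers of these cells were higher in CKO. Over all tested genes 4.85% were called higher, and 27.7% had both CKO libraries above both WT libraries. Of 10 adventitial markers tested, 4 were called higher (Pi16, Igfbp6, Dpt and Clec3b), 0 lower, and 8 had both CKO libraries above both WT libraries. Their summed level was 1327 and 1365 CPM in WT against 1693 and 1868 in CKO, and none of the 10 was at 0 in any library. Log2 changes were above 0 for 9 of the 10. Cd34, the most abundant of them, went the other way (log2 change -0.18, edgeR adjusted p = 0.64). It stood at 695 and 650 CPM in WT and at 723 and 460 CPM in CKO. Of 8 lipofibroblast and alveolar fibroblast markers 1 was called higher (Fgf10), and all 8 had both CKO libraries above both WT libraries. Their summed level was 357 and 348 CPM in WT and 496 and 928 CPM in CKO, highest in CKO B as for Dcn and Lum. Fmod is also a tendon gene, and the tendon factor gene Scx rose by 1.19 on the log2 scale (edgeR adjusted p = 0.00468), the 1 called of 3 tested tendon genes, while Tnmd, which defines mature tendon, had 0 to 0.176 CPM. Limma-voom made the same calls in these 3 lists, and DESeq2 also called Mfap5, Col15a1, Tcf21 and Thbs4 higher. The part of these cell types in the SLRP values was not tested.

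No call was made in edgeR among markers of the other cell types. Of 8 myofibroblast, 8 pericyte, 4 mesothelial, 6 endothelial and 6 epithelial markers tested, 0 were called, with 0 higher and 2 lower, 1 higher and 2 lower, and then 0 in either direction in the last 3 lists at an unadjusted p under 0.05. DESeq2 called 2 myofibroblast markers (Pdgfra and Tgfbi) and 1 pericyte marker (Pdgfrb) lower, and limma-voom called 0.

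The genes nearest to a member in pattern were found among 5381 other named genes whose mean log2 CPM reached 5 (5382 for Lum and Omd, which lie under it). Likeness was the root mean square difference of log2 CPM after centring each gene on its mean over the 4 libraries. For Fmod these were Man2b2 (0.0441) and S1pr3 (0.0603), the latter with a log2 change of 1.07 and an adjusted p of 0.0175 in edgeR. Those near Dcn included Abca8a (0.0856) and those near Lum included Jun (0.0711). Bgn was nearest to Reep3 (0.0135) and Tspan9 (0.0166), and Prelp to Sparcl1 (0.014) and Eml1 (0.0168). Ogn was nearest to Abca1 (0.0311) and Tmbim1 (0.0334), Podn to Cp (0.0126) and Rian (0.0183), and Omd to Dapk1 (0.131) and Rps2 (0.153). With 4 libraries many genes share a pattern, and these distances are a description only.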

How the data were processed

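RNA sequencing reads were deposited by the authors as raw counts per gene. The submitters' processing notes name STAR, edgeR 3.28.1, Trimmomatic 0.36, cutadapt 2.5 and FastQC 0.11.8, and the build GRCm38.p6. No source used here names the counter or says whether it used strand. Per the file headers, each gene also has a log2 fold change and p-values, raw and adjusted, from the authors, quoted only where named as theirs. The 4 other per-sample columns were not used. Control and Mutant columns were read as WT and CKO.

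Counts were analysed in R 4.3.3 with edgeR 4.0.16 (filterByExpr with a minimum count of 10, TMM, glmQLFit and glmQLFTest with robust estimation). Standard errors are the size of the log2 change over the root of F, and 95% intervals use the test's degrees of freedom. The fit was tested on simulated data, where it called 64 of 100 genes changed 2-fold and 90 of 100 changed 4-fold. Of 15010 unchanged genes it called 24. Intervals are for the log2 change and are not the range in which single libraries fall. Their width rests on the spread between libraries, and n = 2 limits the precision. RPKM used merged exon lengths from GENCODE M21 in place of the deposited length that had been planned. Alternatives included DESeq2 1.42.0, limma-voom (limma 3.58.1), other scalings and filters, and each library left out.

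The members and lists were chosen with earlier results of these data known. Named are all members, tested relatives, up to 3 genes of lowest p per functional list, called genes where 5 or fewer were called, and the 2 nearest in pattern, of which 1 each for Dcn and Lum is not reported here. Markers beyond these were chosen after their values were seen.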

Additional observations from a re-analysis of the deposited data

How the results depend on the processing

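The number of members called higher in CKO was 1 in the main analysis and depended on the settings. It was 0 with RLE size factors, 0 with a mean CPM of at least 1, 0 at an adjusted p under 0.01, 2 in DESeq2 (Lum and Fmod) and 3 with no filter on low counts (Dcn, Lum and Fmod), and ranged from 0 to 3 when each library was left out. The number called lower was 0 under every setting run. Of all genes, 738 were higher and 419 lower. These counts were 1543 and 916 with no filter, 199 and 42 at an adjusted p under 0.01, and ranged from 248 to 1289 and from 91 to 553 when each library was left out. Podn alone changed sign, to -0.13 without CKO B, and reached 0.34 without CKO A. The causes were not tested. No paired analysis was possible because the count columns carry no replicate number. With 1 library left in a genotype, it is assumed to vary like the other genotype. The deposited gene length had been planned for RPKM, and the switch to merged exons was made after the data were seen. With the deposited length, mean RPKM was 385.5 in place of 741 for Bgn and 4.19 in place of 15.4 for Podn. Depth limits Omd most, with 26 to 73 reads per library.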

Other observations

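The deposited gene length did not equal the merged exon length for any gene matched to GENCODE M21. For 98.5% of 31183 matched genes it equalled the exon lengths summed over all annotated transcripts plus 1 base per exon. It was therefore longer than the merged exons by a factor of 1.00 for Lum and Ogn, 1.54 for Dcn, 1.92 for Bgn and 3.67 for Podn. By the deposited length Fmod would rank above Dcn, and Lum above Podn. The deposited table lists the transcript type of Bgn as lncRNA, whereas GENCODE M21 gives its gene type as protein coding. A transcript type and a gene type are unlike fields, so these entries need not conflict.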
